A study of Caenorhabditis elegans with 2 samples.

Results

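The gene nhr-71 of the nematode Caenorhabditis elegans encodes a nuclear hormone receptor, and its own neighbourhood is described here as a place where the tagged NHR-71 protein was recovered. The stretch examined is nhr-71 with 20 kb to each side, on the X chromosome from 13727315 to 13771797 on the ce11 build (44483 bp). Its bounds follow from the position of the gene. A summit, the single base at which the peak caller placed the highest signal of a peak, was a member when it lay in this stretch. There were 19 members of 8540 summits in the authors' IDR set. This set holds the peaks kept after a cut by the irreproducible discovery rate, a measure of how alike peaks rank between replicates. Single members could still rank apart, as the one 7032 bp upstream of the gene, at 11612 in replicate 1 and 3775 in replicate 2. The pooled list held 50 members of its 30000 positions, the list of replicate 1 held 47 of 30000 and that of replicate 2 held 48 of 30000.

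The study had 1 group of 2 biological replicates. Both were whole hermaphrodite L1 larvae of strain OP480, genotype unc-119(tm4063) III; wgIs480, in which a transgene makes NHR-71 with a GFP-FLAG tag at its C-terminus. Larvae were starved after bleaching, which holds them at the first larval stage, and were taken 6 h after this synchronization. Sonicated chromatin was precipitated with an antibody against GFP and sequenced (ChIP-seq). In whole larvae the tissues that carried the tagged protein are mixed. The strain holds the native nhr-71 and the transgenic copy of the same sequence, so positions in nhr-71 and in whatever flank the transgene carries cannot be told apart by copy. The labels give neither the length of that flank nor the number of transgene copies, and their part in the values was not tested.

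Nuclear hormone receptors are transcription factors that bind DNA through a pair of zinc fingers, and many change their activity when a small lipid-like ligand binds. Vertebrate receptors typically read short words such as AGGTCA, singly or as repeats. The family is greatly expanded in nematodes, and the ligands and DNA words of most of its nematode members are not known. Some transcription factors bind near their own gene, an arrangement called autoregulation when the binding alters the gene's own transcription; binding data alone do not measure transcription.

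The gene itself, WBGene00003661, runs on the plus strand from 13747315 to 13751797 (4483 bp) with 2 annotated transcripts, the longest of 10 exons. Upstream lies 12907 bp without any other protein-coding gene, and then pix-1. Downstream come aakb-1, for a beta subunit of the AMP-activated protein kinase, and cest-13, of the carboxylesterase family. The last is nkb-3, on the minus strand, for a beta subunit of the sodium-potassium ATPase.

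The sequences at the strongest and the limiting summits of the crowded stretch at nhr-71 are shown because the counts below turn on these positions. Each is the 300 bp centred on a summit of the IDR set, plus strand, from the RefSeq copy of the ce11 assembly. Capitals mark matches, on either strand, to 9 words. AGGTCA with its longer form AAGGTCA, and the related AGTTCA, were taken for nuclear receptors. TGATAA or AGATAA is read by GATA factors, CACGTG by basic helix-loop-helix factors, TGACTCA by the AP-1 family and TTTCGCG by the E2F family; GAGAGA is a common repeat. AAGGTCA contains AGGTCA; the other words are not contained in one another.
First summit of the crowded stretch, 7873 bp upstream of the gene start, chrX:13739292-13739591: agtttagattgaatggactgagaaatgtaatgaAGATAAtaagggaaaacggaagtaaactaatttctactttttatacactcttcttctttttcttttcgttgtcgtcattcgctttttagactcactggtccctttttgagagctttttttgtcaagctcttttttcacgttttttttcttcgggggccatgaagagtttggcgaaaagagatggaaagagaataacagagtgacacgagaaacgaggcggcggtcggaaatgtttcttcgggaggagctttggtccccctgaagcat
Second strongest summit, 2420 bp upstream, chrX:13744745-13745044: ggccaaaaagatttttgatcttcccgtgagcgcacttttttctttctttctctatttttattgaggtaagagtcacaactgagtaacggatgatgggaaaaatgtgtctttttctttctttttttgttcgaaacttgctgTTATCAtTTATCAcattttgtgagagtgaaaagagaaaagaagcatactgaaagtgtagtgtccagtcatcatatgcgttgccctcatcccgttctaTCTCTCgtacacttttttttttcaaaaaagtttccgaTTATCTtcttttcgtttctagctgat
Next strongest summit of the crowded stretch, 1550 bp upstream, chrX:13745615-13745914: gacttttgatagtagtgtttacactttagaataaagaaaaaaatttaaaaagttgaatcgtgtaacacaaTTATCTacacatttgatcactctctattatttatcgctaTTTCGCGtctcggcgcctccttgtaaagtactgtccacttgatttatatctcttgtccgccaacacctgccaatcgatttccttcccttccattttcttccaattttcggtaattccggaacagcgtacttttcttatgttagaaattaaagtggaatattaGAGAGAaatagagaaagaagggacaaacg
Promoter summit, 471 bp upstream, chrX:13746694-13746993: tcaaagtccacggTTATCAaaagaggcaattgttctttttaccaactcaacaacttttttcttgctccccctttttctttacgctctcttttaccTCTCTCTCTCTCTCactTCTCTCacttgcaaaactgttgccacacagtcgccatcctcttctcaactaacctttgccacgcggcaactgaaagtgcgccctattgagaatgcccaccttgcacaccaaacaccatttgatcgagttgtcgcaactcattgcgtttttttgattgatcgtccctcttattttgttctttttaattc
Last summit of the crowded stretch, in the gene 887 bp past its start, chrX:13748052-13748351: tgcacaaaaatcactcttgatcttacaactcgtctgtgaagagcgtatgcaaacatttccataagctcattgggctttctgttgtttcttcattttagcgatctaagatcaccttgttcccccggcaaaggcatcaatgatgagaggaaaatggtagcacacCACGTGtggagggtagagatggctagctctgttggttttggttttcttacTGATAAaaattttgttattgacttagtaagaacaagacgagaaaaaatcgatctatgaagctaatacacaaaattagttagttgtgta

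The word AGGTCA, the classical half-site of nuclear receptors, was in none of these 5 sequences and in none of the 19 summit windows, against 812 of all 8540 (9.51%). The longer AAGGTCA was also at 0 of 19 and at 294 of 8540 (3.44%). The other receptor-like word, AGTTCA, was in 3 of 19 (15.8%) and in 1264 of 8540 (14.8%). The missing match says only that these letters do not stand in these 300 bp windows.

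The words of GATA factors, zinc-finger regulators with members in the gut and skin of the worm, were present at the locus. TGATAA was in 5 of 19 windows (26.3%), all 5 of them in the crowded stretch, against 28.6% of all IDR summits. AGATAA was in 6 of 19 (31.6%), against 20.2% of all. At the summit 2420 bp upstream, TGATAA stood as a pair on the minus strand, beginning 10 bp and 3 bp before the summit base. At the intron summit, CACGTG, an E-box, began 12 bp past the summit, and TGATAA 62 bp past it. The promoter sequence held a run of GAGAGA matches on the minus strand, 38 to 55 bp before its summit; GAGAGA was in 7 of 19 windows (36.8%), against 44.1% of all. CACGTG was in 2 of 19 (10.5%, against 11.7%), TTTCGCG in 1 of 19 (5.26%, against 5.21%) and TGACTCA in 0 of 19 (against 4.04%). With 19 windows, some of them overlapping, these shares describe the locus and no difference was tested. The median GC content of the member windows was 35.3%, against 39% at all other IDR summits and 34.5% over the bases of the whole stretch.

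Read by place, the largest number of IDR summits lay upstream of nhr-71, in the longest zone. The 12907 bp between pix-1 and nhr-71 held 10 of the 19, and the body of nhr-71 held 1. A further 4 lay in the 3971 bp between nhr-71 and aakb-1, 2 in the body of pix-1 and 2 in that of nkb-3. Per kb, IDR summits were denser between nhr-71 and aakb-1 (1.01) than between pix-1 and nhr-71 (0.775), and the body of nhr-71 held 0.223. None lay in the bodies of aakb-1 and cest-13 or in the short gaps beside cest-13. Neighbouring summits were 200 to 13962 bp apart, with a median of 1123 bp.

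**Figure D1:**
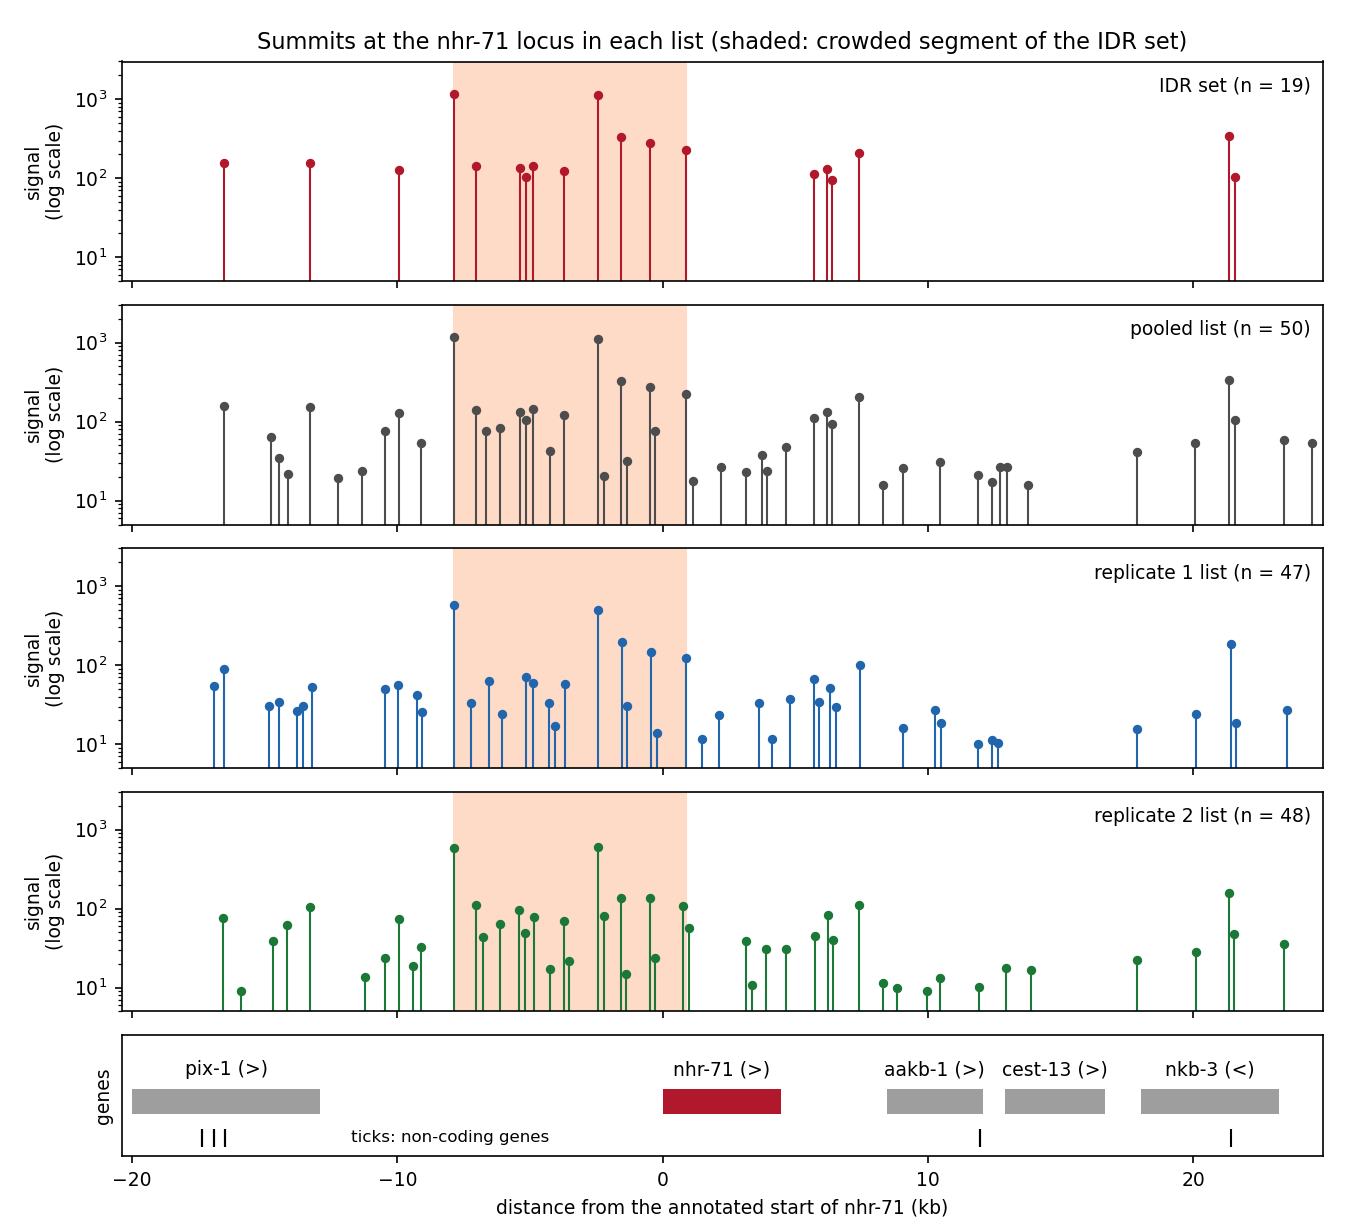
Each vertical line is a summit, at its distance in kb from the annotated start of nhr-71, with its deposited signal on a log axis, for the IDR set and the pooled, replicate 1 and replicate 2 lists; the lowest panel shows the genes, with > and < for the strand. The summits of highest signal, 1172.7 and 1116.7 in the IDR set, stand upstream of nhr-71 in every list, and the stretch over cest-13 has no IDR summit.

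Within the upstream stretch the signals were very unequal. The farthest of the strong summits, 7873 bp before the gene start, reached 1172.7 in the IDR set (rank 367), with 584.2 in replicate 1 and 586.2 in replicate 2. The summit 2420 bp before the start had 1116.7 (rank 406), with 502.9 in replicate 1 and 607.6 in replicate 2. These were the only members over 1000, which is 2 of 19 (10.5%), against 508 of the other 8521 IDR summits (5.96%). Pooled and replicate signals are on different scales and are not compared in size. A replicate's value for a member is that of its strongest peak that contains the member's summit, so neighbouring members can share a replicate peak.

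Nearer to the gene the values were lower. The summit 1550 bp upstream had 329.1 in the IDR set, with 195.5 in replicate 1 and 136.7 in replicate 2. The summit 471 bp upstream had 277.9, with 145.7 in replicate 1 and 135.1 in replicate 2. It was the only IDR summit in the promoter window of nhr-71, which reached 1000 bp before and 200 bp past the annotated start. Of the 5 protein-coding genes of the stretch, 2 had an IDR summit in that window, nhr-71 and pix-1, against 20.8% of 19973 protein-coding genes. The promoter summit of pix-1, at 517.9, fell just outside the 20 kb.

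Among nuclear receptor genes, the promoter signal of nhr-71 stood above the median and far below the highest. Its signal of 277.9 ranked 26 among the 70 receptor genes with a promoter summit, whose signals ran between 87.8 and 3249.6 with a median of 190.9. Among all 4152 genes with a promoter summit it ranked 2063, beside a median of 275.4.

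Between the strong upstream summits lay a run of weaker ones. The summit 7032 bp upstream had 142.1 in the IDR set, with 32.8 in replicate 1 and 110.2 in replicate 2, the widest gap between replicates among the members (log2 ratio of replicate 2 to replicate 1, 1.75). The summit 5367 bp upstream, at 133.6, lay in a peak of replicate 2 (97.4) and in no peak of replicate 1. Beside it, 5142 and 4868 bp upstream, were summits of 104.2 and 143.9. These 3 had overlapping intervals that form 1 region of 919 bp, so they are neighbouring maxima and not 3 separate regions. The summit 3701 bp upstream had 123.1, and that 9942 bp upstream, the farthest in the gap between the genes, had 128.8.

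The longer lists filled this stretch further and in like number. Between pix-1 and nhr-71 the pooled list held 20 positions, replicate 1 held 18 and replicate 2 held 21. Their median signals were 93.7 in the pooled list, 52.8 in replicate 1 and 63.9 in replicate 2. In the body of nhr-71 the medians were lower, 25.6 in the pooled list over 6 positions, 23.5 in replicate 1 over 5 and 38.6 in replicate 2 over 5. Between nhr-71 and aakb-1 each of the 3 lists held 6 positions, with medians of 102.9 in the pooled list, 44.4 in replicate 1 and 42.5 in replicate 2. Density was thus close in the 3 zones, at 1.55, 1.34 and 1.51 pooled positions per kb.

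Inside nhr-71 the IDR set held 1 summit, 887 bp past the start in intron 2 (13747957 to 13748588). Its signal was 225.2 in the IDR set, with 123.7 in replicate 1 and 108.0 in replicate 2. Replicate 2 placed its maximum in this intron at 780 bp, with another of 56.7 at 992 bp. The pooled list added 5 positions in the gene body, 4 of them in coding exons 2220 to 3947 bp past the start, with signals of only 22.9 to 37.9, and 1 of 17.7 at the end of intron 2.

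Past the 3′ end of nhr-71, 4 summits lay ahead of aakb-1. The one nearest to aakb-1, 1045 bp before its start, had 207.2, with 101.5 in replicate 1 and 110.8 in replicate 2. It lay just outside the promoter window in the IDR set, while the summit of replicate 1, at 13754773, lay inside the window. The remaining 3, at 5699, 6206 and 6406 bp past the nhr-71 start, had 112.2, 132.3 and 93.6. Those at 6206 and 6406 bp had overlapping intervals, and for both the strongest replicate peak was the same, with 51.2 in replicate 1 and 83.4 in replicate 2. Replicate 2 also had a weaker summit of 39.9, at 6426 bp, and replicate 1 had one of 29.8, at 6527 bp.

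The bodies of aakb-1 and cest-13 held weak positions only. They had no IDR summit, and their pooled positions, 3 in aakb-1 and 2 in cest-13, reached 31.2 and 26.6 at most. At nkb-3, a summit of 339.0 (183.4 in replicate 1 and 156.9 in replicate 2) lay in an intron, just beside the non-coding RNA gene F55F3.9 (13768692 to 13768807). Its neighbour of 104.9 had 18.5 in replicate 1 and 47.2 in replicate 2, with an interval that overlapped. In pix-1, the summit 16553 bp upstream of nhr-71 had 157.9, with 89.2 in replicate 1 and 76.4 in replicate 2. It fell in the non-coding RNA gene K11E4.10 (13730758 to 13730867) within a pix-1 intron, where the tRNA gene K11E4.t6 (13730778 to 13730850) lies on the other strand. The other pix-1 summit, 13278 bp upstream of nhr-71 in an untranslated exon, had 155.2, with 52.8 in replicate 1 and 105.1 in replicate 2.

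The edges of the crowded stretch depended on the list. Chaining IDR summits no more than 2000 bp apart gave a segment of 10 summits at nhr-71, with the first at 13739442 and the last at 13748202 (8761 bp). It thus ran over 7873 bp upstream of the gene start and 887 bp into the gene. The gap before it was 2069 bp, barely over the limit, while the gap after it was 4812 bp. With the whole peak intervals it spanned 13739026 to 13748411. Peaks covered 39.9% of its bases, against a median of 48.3% (33.3% to 78.7%) in the 11 other chains with at least 10 summits, of which 6 were covered more. Of 5770 chains in the genome, 7 held more summits, 4 of them on X.

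Crowding did not go with high signal throughout. The median signal of the segment was 184.6, against 181.3 over the rest of X, a ratio of 1.02. Over the 44483 bp, the 19 members ran between 93.6 and 1172.7 with a median of 143.9, against a median of 193.9 over all IDR summits elsewhere and 181.6 elsewhere on X. Only 7 of the 19 were among the 4270 strongest summits of the IDR set. The pooled list gave the other order, with a median of 56.3 in the stretch, against 40.6 elsewhere.

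In the longer lists the segment began farther upstream, and in the pooled list and replicate 1 it also ran past the gene. In replicate 2 it ended 992 bp past the gene start, against 887 bp in the IDR set. With the same limit of 2000 bp, the pooled list gave 44 summits between 13730762 and 13761099 (30338 bp), that is, 16553 bp upstream to 13784 bp downstream of the nhr-71 start. This chain covered 51.7% of its bases, against a median of 45.8% (32% to 67%) in the 108 other chains with at least 20 summits. More summits were held by 3 of 7841 chains, none on X. Replicate 1 gave 35 summits between 13736857 and 13759959, and 6 of its chains held more, 1 of them on X. Replicate 2 gave 23 between 13736082 and 13748307, and 46 of its chains held more, 12 of them on X. The replicates thus began within 1 kb of each other upstream and ended far apart downstream. The chain of replicate 2 ended at a gap of 2171 bp, barely over the limit, and its list held further summits past that gap. Its end and its rank therefore rest on the limit chosen, and a difference between replicates downstream was not tested. Where a limit of 5000 bp was applied to the pooled list, a chain of 62 summits ran between 13727100 and 13782244, past the end of the 20 kb. At that limit 13 chains held more summits, 4 of them on X. The chain at nhr-71 was bounded by empty gaps of 10641 bp upstream and 19583 bp downstream.

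**Figure D2:**
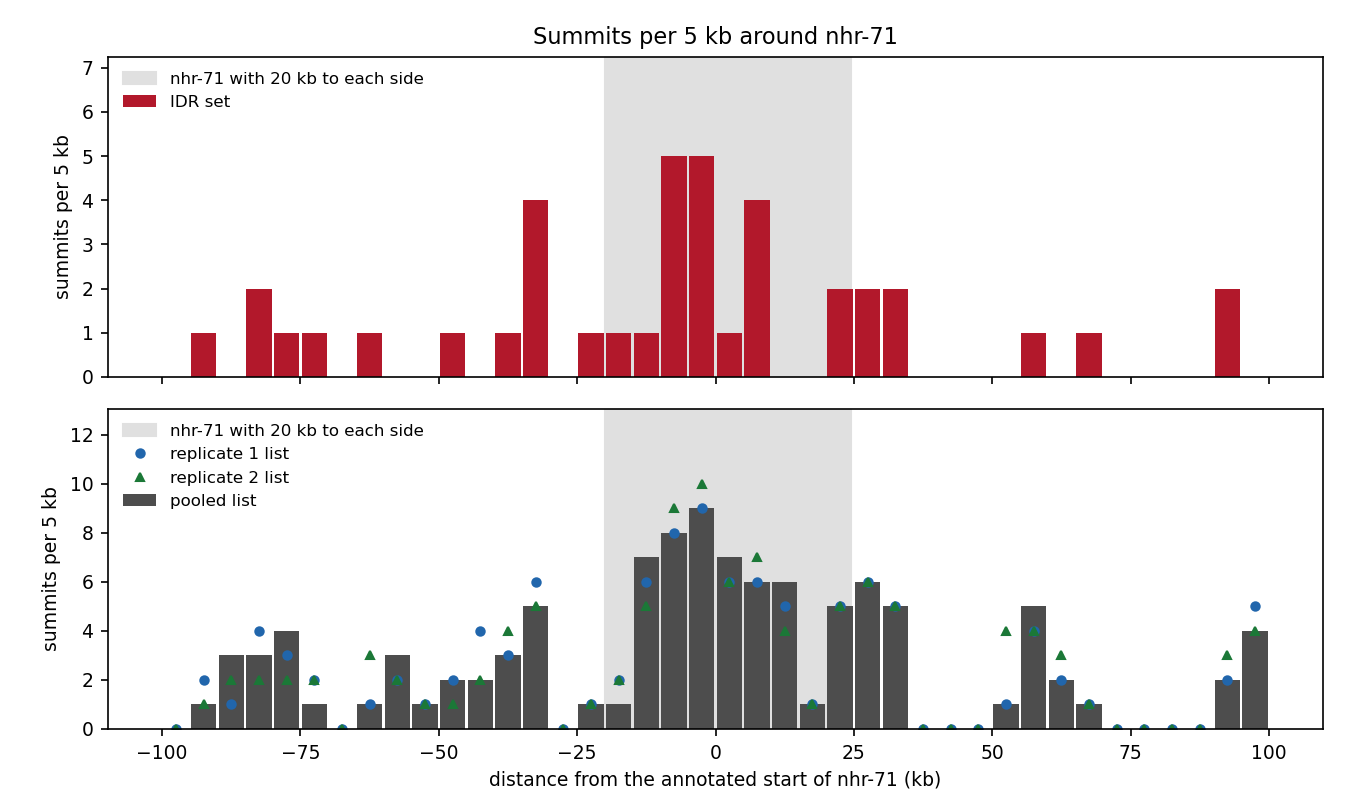
Summits per 5 kb are plotted against the distance from the annotated start of nhr-71 in kb, up to 100 kb to each side; bars are the IDR set (top) and the pooled list (bottom), points are the replicate lists, and grey marks nhr-71 with 20 kb to each side. The pooled list peaks at 9 summits in the 5 kb before the gene start, where the IDR set has 5.

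The 5 kb profile showed the same shape. Each 5 kb step between 15000 bp upstream and 15000 bp downstream of the start held 6 to 9 summits of the pooled list. The 5 kb just before the start held 9 in the pooled list and in replicate 1 and 10 in replicate 2. In the IDR set the 2 steps before the start held 5 each, and the step just past it held 1. No list had a summit between 35000 and 50000 bp downstream.

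Summits were denser at nhr-71 than over most of the genome. The locus held 0.427 IDR summits per kb, against 0.106 over the rest of X and 0.0852 over the genome. The pooled list gave 1.12 per kb, against 0.391 over the rest of X. With each replicate list cut to its 8540 strongest positions, the locus held 18 summits in replicate 1 and 22 in replicate 2, or 20 ± 2.83 (SD, n = 2). The full replicate lists gave 47.5 ± 0.707 (SD, n = 2).

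Windows of the same length, tiled over the genome and kept clear of the locus, served for comparison. Of 2249 such windows, 5 held more IDR summits than the 19 at nhr-71 and 2 held as many; the windows averaged 3.78 ± 3.37 (SD) with a maximum of 23. On X, with an average of 4.69 over 396 windows, 3 held more. In the pooled list no window held more than the 50 at nhr-71 and 1 held as many, beside an average of 13.3 ± 10.4 (SD). In replicate 1, 2 windows held more than its 47, and in replicate 2 none held more than its 48. With the tiling shifted, 1 window held more in the pooled list, 1 in replicate 1 and 2 in replicate 2. With the 4270 strongest IDR summits alone, 33 windows held more than the 7 at nhr-71. Merging overlapping IDR intervals left 15 regions at the locus, and 6 windows then held more.

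**Figure D3:**
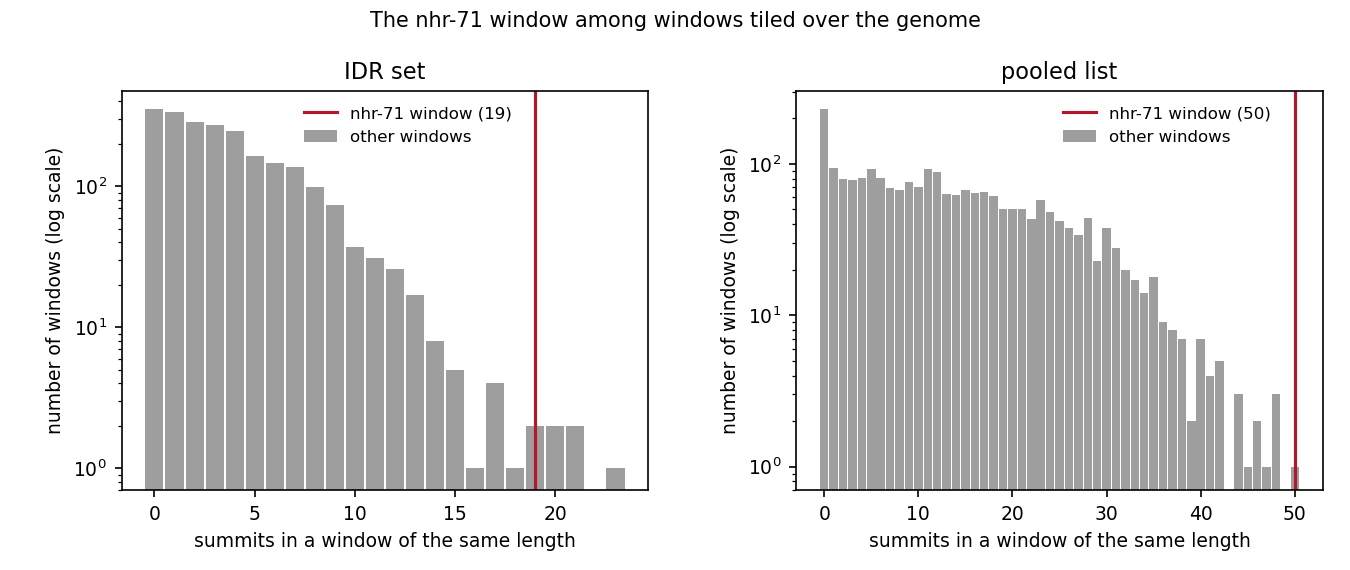
Grey bars count the windows of 44483 bp (log axis) by the number of summits they hold, for the IDR set (left) and the pooled list (right); the red line marks nhr-71 with 20 kb to each side. The 19 IDR summits at nhr-71 lie near the right end of the distribution, where 5 windows hold more, and its 50 pooled positions lie at the end.

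The stretch between pix-1 and nhr-71 stood high among long gaps between genes. It held 0.775 IDR summits per kb, against 0.0921 over all 643 gaps of at least 10000 bp between protein-coding genes. Of these gaps 4 held more summits than its 10, and 1 held more per kb. The pooled list gave 1.55 per kb, against 0.315, and no other gap held more per kb.

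Set against other receptor genes, each with 20 kb to each side, nhr-71 had the highest IDR count. Of 274 nuclear receptor genes none exceeded its 19, and the median was 3, or 7 over the 27 of them on X. The next were nhr-19 and nhr-35 with 15 each, followed by nhr-1 and nhr-40 with 14 each. Of these 4, nhr-19 lies on chromosome II and the others on X. In the pooled list 1 receptor gene, nhr-27, exceeded the 50 of nhr-71, with 63 over a longer stretch (0.441 per kb); it is named after its value was seen. For 55 of the 274 genes this stretch held no IDR summit at all. The share over all protein-coding genes is not given here, so this count is not read further. The median over all 19973 protein-coding genes was 3 as well. The gene bodies gave another order, since 18 receptor genes had more IDR summits in the body than the 1 of nhr-71.

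Over all 19973 protein-coding genes, 17 had more IDR summits in the gene with 20 kb to each side, and 27 had more per kb. The genes most like nhr-71 in IDR summits per kb, by the nearest value among genes over 100000 bp away, were F54F2.6, C49F8.1 and ZK470.2. F54F2.6 on chromosome III had 17 summits at 0.423 per kb, C49F8.1 on X had 18 at 0.432 and ZK470.2 on X had 23 at 0.437. The median IDR signal was 143.9 at nhr-71, against 267.8 at F54F2.6, 278.9 at C49F8.1 and 199.5 at ZK470.2. The pooled density was 1.12 per kb at nhr-71, against 0.771, 0.744 and 0.797 per kb at these genes in the same order. unc-119, the gene mutated in the strain, had 3 IDR summits and 5 pooled positions with 20 kb to each side.

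The members were mostly outside the promoter windows of protein-coding genes. Of the 19 IDR summits, 13 lay in the sequence left after these windows, exons and introns, which is 68.4% (95% Wilson interval 46% to 84.6%), against 30.1% elsewhere. Such sequence made up 37% of the bases of the locus and 25% of the genome. In the segment it held 8 of 10 summits (80%) and made up 78.4% of the bases. Only 1 of 19 lay in a promoter window of a protein-coding gene (5.26%, interval 0.935% to 24.6%), against 41.7% elsewhere. With non-coding genes counted too, it was 4 of 19 (21.1%, interval 8.51% to 43.3%), against 57.9% elsewhere. Promoter windows of protein-coding genes made up 11.2% of the bases of the locus and 21.5% of the genome. Introns held 4 (21.1%), against 23.9%, and untranslated or other exons held 1. Introns made up 31.2% of the bases of the locus and 30.4% of the genome. Coding exons held 0 of 19 (interval 0% to 16.8%), against 1.89% elsewhere, and made up 15.1% of the bases of the locus and 20% of the genome. In the pooled list, which holds background positions too, coding exons held 6 of 50 (12%), against 10.5% elsewhere. These intervals cover the counting of summits only. They treat the 19 summits as independent, although merging overlapping peaks left 15 regions, so they may be too narrow. Depth in reads is unknown, as peak lists carry no counts of reads.

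A larger share of the pooled positions passed IDR at the locus. It was 19 of 50, or 38% (95% Wilson interval 25.9% to 51.8%), against 28.5% over the whole pooled list, which the interval includes. The pooled list cut to its 8540 strongest positions gave the same 19 and the same lowest signal, 84.1. The share therefore goes with pooled signal and does not measure how well the replicates match at single members. The 31 other pooled positions had signals between 15.6 and 83.2. The weakest member, 6406 bp downstream of the start, had 93.6, and the strongest pooled position left out, at 13741200, had 83.2; the lowest IDR signal anywhere was 84.1. In the pooled list 23 of 50 positions (46%) carried the highest −log10 (q) of the list, 4.28, against 32.1% of all.

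Both replicates had a peak over 18 of the 19 members (94.7%), against 98.7% of all IDR summits. The summits themselves matched less closely. Both replicates had a summit within 100 bp at 15 of 19 (78.9%), against 96.9% of all IDR summits, and within 50 bp at 13 (68.4%), against 86.2%. On the log2 scale, replicate 2 over replicate 1 was 0.20 at the median (SD 0.65), against −0.12 (SD 0.47) elsewhere. The replicate lists share no stated scale, so these ratios are set beside those elsewhere and not read against 0. At the common width of 420 bp stood 12 of the 19 members. The median width was 420 bp both at the members and at all other IDR summits. The share of all IDR summits at that width is not given here.

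**Figure D4:**
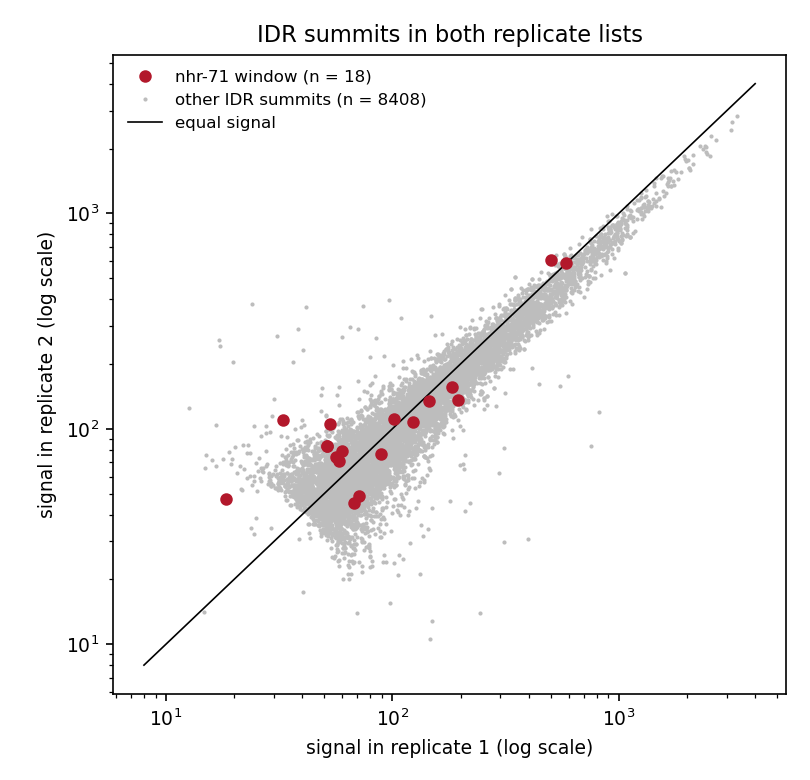
Signal in replicate 2 is plotted against signal in replicate 1, both on log axes, for IDR summits inside a peak of both lists; red points are the 18 members at nhr-71, grey points the 8408 others, and the line marks equal signal. The 2 strongest members lie on or just above the line. The widest departure among the members is that with 32.8 in replicate 1 and 110.2 in replicate 2. The replicate lists share no stated scale, so the line is a guide to the eye and not a measure of agreement.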

How the data were processed

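ChIP-seq peak lists of 2 biological replicates, called biological in the labels, were analysed. The authors deposited, per the submitters' file list, a narrowPeak list per replicate, a pooled list and an IDR set, each on ce11 and ce10, made from the precipitated and control alignments. The authors deposited a signal value, a −log10 (q) value and a summit offset per peak. The aligner, the caller, the threshold of IDR and the unit of the signal are not named in the labels or files, and the control was not analysed here. The lists hold no read counts, so depth is unknown, and 2 replicates limit the precision.

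Summits (interval start plus offset) were counted on ce11, 1-based, with genes of Ensembl release 115 and sequence of the RefSeq copy of the same assembly. All peak ends lay within its chromosomes. Segments were chains of summits at most 2000 bp apart; the chaining was tested on simulated data. Python 3.11.15 was used with Matplotlib 3.10.9, SciPy 1.17.1, pandas 2.3.3 and NumPy 2.4.6. No test between groups was made, since there was 1 group. The members, words and lists were chosen with earlier results of these data known. Named genes are those touching the stretch (non-coding ones where a summit lay in or beside them), unc-119, the 3 genes nearest in IDR summits per kb, and the receptor genes with the 3 highest counts and ties. Alternatives covered the gap, flank, promoter window, list, build and replicate.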

Additional observations from a re-analysis of the deposited data

How the results depend on the processing

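The values below are limited by 2 replicates, by unknown depth and by the ranks that end each list; the cause of the changes was not tested beyond what each setting changes by construction. The number of summits at the locus, 19, became 7 among the 4270 strongest IDR summits, 50 in the full pooled list and 29 with 40 kb to each side; either replicate list alone, cut to 8540, gave 18 to 22. The segment of 8761 bp with 10 summits became 708 bp with 3 summits at a gap of 1000 bp, and 21103 bp at a gap of 4000 bp. At 1000 bp the summits 5367, 5142 and 4868 bp upstream formed a chain of 3 as well. The later of the tied chains, past the 3′ end of the gene, was the one taken. The segment was 3308 bp with 4 summits among those 4270 and 30338 bp with 44 in the full pooled list, or 55145 bp with 62 at a gap of 5000 bp. The last setting and the counts in the segment were added after the data had been seen, as was the merging of intervals. Leaving out a replicate gave 8766 to 8866 bp, 9 to 13 summits, a covered share of 39.9% to 50.6% and a ratio of medians of 1.07 to 1.29. In the full pooled list the covered share was 51.7%, the ratio 1.48, and the shares of summits in promoter windows and in coding exons 13.6% each. The promoter share of the segment, 10%, was 20% with 2000 bp upstream, 25% among those 4270 and 7.69% to 11.1% without a replicate. All 5 genes of the locus, and not 2, had a promoter summit in the full pooled list, which holds background positions too. The added summits had pooled signals of 15.6 at aakb-1, 26.7 at cest-13 and 58.2 at nkb-3, in a list that ends at 14.3. The share over all genes in that list is not given here, so the count of 5 is not read further. Without a replicate, 2 to 3 genes of the locus had a promoter summit. By gene windows nhr-71 ranked 18, against 6 among tiled windows. Gene windows differ in length and can overlap, while the tiled windows are all of the same length. On ce10 the chain of nearest highest signal had 10 summits over 8760 bp; the planned ce10 alternative, by the X chain with most summits, was not run, because that chain lies elsewhere on ce11. No paired analysis was possible because there was 1 group.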
